A study of Rattus norvegicus with 7 samples.

Results

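Cd151 and other tetraspanins were followed in RNA of whole brain from adult male rats, bred selectively as the Alcohol Preferring (P) and Alcohol Non-Preferring (NP) lines from Wistar stock and never given alcohol. The array probes of 8 listed tetraspanin genes (Cd151, Cd9, Cd37, Cd53, Cd63, Cd81, Cd82 and Tspan2) were sought by the RefSeq transcript accession of each spot. For 7 of the 8 genes a probe was found, 1 per gene, among 6046 genes that could be named in this way, and Cd9 had none and is not analysed here. Cd151 was chosen by its measured P minus NP difference on these same arrays, and the other genes by family, to ask whether that difference extends to them. The data are 4 P rats (P 1 to P 4) and 3 NP rats (NP 2 to NP 4), housed in pairs, with 1 rat and 1 array each. All rats of both lines shared the same tissue, sex, housing and alcohol-naive state, so the groups differ by line only as far as the labels say. In RNA of a whole organ, fewer cells of a type and less RNA per cell cannot be told apart.

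Tetraspanins are small proteins that cross the membrane repeatedly and gather integrins, immunoglobulin superfamily proteins, proteases and signalling enzymes into membrane domains. Cd151 is known as the partner of the laminin-binding integrins in endothelial and epithelial cells, and Cd63 as a protein of late endosomes, lysosomes and exosomes. Cd81 and Cd82 are broadly expressed, Cd37 and Cd53 belong to blood and immune cells, microglia included, and Tspan2 is a tetraspanin of oligodendrocytes.

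The sources used here give no probe sequences, so the promoters of 4 genes are shown, since the results turn on Cd151, Cd53 and Tspan2, with Cd37 as the other leukocyte member. Each is the 250 bases before the annotated start, 5′ to 3′ on the gene's own strand, from RefSeq on the GRCr8 build. Capitals mark GC boxes (GGGCGG) and PU.1-type ETS sites (GAGGAAGT) on either strand, and adjacent GC boxes can share a base.
Cd151, chr1:205994050-205994299, plus strand: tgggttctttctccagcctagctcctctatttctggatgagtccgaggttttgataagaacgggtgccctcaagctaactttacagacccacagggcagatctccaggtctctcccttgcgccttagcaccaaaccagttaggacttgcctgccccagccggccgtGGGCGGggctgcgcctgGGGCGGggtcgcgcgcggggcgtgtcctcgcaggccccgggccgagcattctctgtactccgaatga
Tspan2, chr2:192866030-192866279, plus strand: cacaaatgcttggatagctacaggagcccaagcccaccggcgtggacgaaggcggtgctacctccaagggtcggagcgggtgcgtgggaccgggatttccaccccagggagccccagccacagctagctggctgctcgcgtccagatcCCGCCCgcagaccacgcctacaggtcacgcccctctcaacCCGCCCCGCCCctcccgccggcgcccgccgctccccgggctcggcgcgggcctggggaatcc
Cd37, chr1:104860785-104861034, minus strand: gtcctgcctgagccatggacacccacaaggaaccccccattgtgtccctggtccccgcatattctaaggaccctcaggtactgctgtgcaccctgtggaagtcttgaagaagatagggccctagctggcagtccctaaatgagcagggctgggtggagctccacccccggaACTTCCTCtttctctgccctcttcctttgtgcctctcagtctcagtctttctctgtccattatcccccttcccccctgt
Cd53, chr2:197087897-197088146, minus strand: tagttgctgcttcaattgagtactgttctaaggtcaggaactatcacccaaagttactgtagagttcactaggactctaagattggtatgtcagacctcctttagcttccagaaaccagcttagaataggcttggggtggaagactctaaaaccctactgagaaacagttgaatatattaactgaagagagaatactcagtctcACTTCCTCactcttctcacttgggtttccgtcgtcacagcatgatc
Promoters were in the table for 7 of the 8 listed genes, all but Cd82. The GC box occurred in those of Cd151 (2 matches), Cd9 (3), Cd63 (2), Cd81 (2) and Tspan2 (3), and in none of the leukocyte pair Cd37 and Cd53. The ETS letters showed the reverse, with 1 match each in Cd37, 79 bases before the start, and Cd53, 46 bases before it, and none in the other 5. Over all 33469 promoters of the table, 30.5% held the GC box and 2.04% the ETS letters in the same window. The letters TATAAA, present in 12.9% of promoters, were in none of the 7. The GC content was 42.4% for Cd53 and 57.2% for Cd37, and 62% to 76.4% for the other 5, against a median of 51.2% over all promoters. A match is a description of letters and not a measured site, and the motifs were chosen after the sequences were seen.

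Cd151 lay above the negative controls in every NP rat and close to the floor of the array in every P rat. As scanned, after subtraction of the local background, its intensity was 383.2 in NP 2, 467.3 in NP 3 and 402.6 in NP 4. In the P rats it was 43.8 in P 1, 48.6 in P 2, 12.5 in P 3 and 36.5 in P 4. The 256 negative control spots of each array had median intensities of 20.3 to 29.4 on the 7 arrays. No negative control spot reached Cd151 on any NP array, where Cd151 was 13.7 to 17.7 times their median. The highest control spot read 358.1 on NP 2, 106.3 on NP 3 and 355.5 on NP 4. On the P arrays 13.3% (P 1), 11.3% (P 2), 77.7% (P 3) and 25.4% (P 4) of these spots were at or above Cd151. The scanner software placed Cd151 above background on all 3 NP arrays and on 3 of 4 P arrays, with P 3 the exception.

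**Figure D1:**
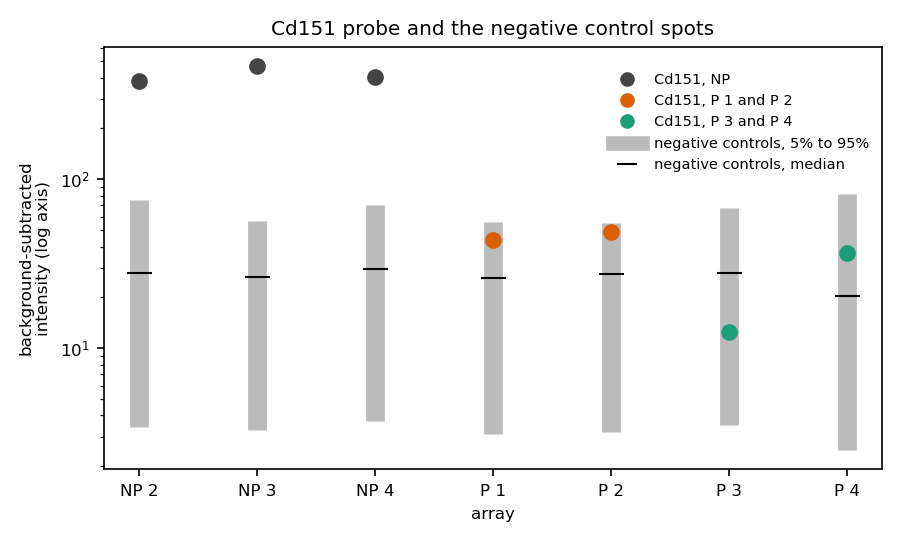
Intensity of the Cd151 probe (dots, local background subtracted, log axis) on each array, beside the 256 negative control spots (grey bar from the lower 5% to the upper 95% point, black line at the median). The 3 NP dots lie between 383.2 and 467.3, above the bars, and the 4 P dots lie between 12.5 and 48.6, within them.

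On the log2 scale after normalization, Cd151 read 8.69, 9.14 and 8.81 in NP 2, NP 3 and NP 4. It read 6.60, 6.84, 6.02 and 6.45 in P 1 to P 4, so the lines did not overlap. The NP mean was 8.88 ± 0.23 (SD, n = 3) and the P mean 6.48 ± 0.35 (SD, n = 4), a difference of -2.40, or 5.28-fold lower in P. Since the gene was chosen for this difference, it is a description and no test is given. Among 5677 named genes tested it was the one with the largest fall in P, and among all 29003 probes it ranked 2 in that direction. Because the P values lie near the floor, the size depended on how background was treated. It was -3.02 with a smaller offset of 16, -3.55 with plain subtraction and -3.67 in the authors' deposited table, all with the same sign. Among NP 2, NP 3, P 1 and P 2 alone, which share a date in their file headers, the difference was -2.19. All these values come from 1 probe. Its sequence was not given, so a sequence difference between the lines under the probe could not be checked.

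For Cd151 as an endothelial gene, the 7 tested genes of the endothelial and vascular list were read beside it. None passed between the lines by limma, 1 had an unadjusted p under 0.05 (Abcb1a, -0.55 ± 0.18, adjusted p = 0.34), and 1 did so in a plain test per probe. The 6 with a value on every array, all but Flt1, had a summed normalized signal of 3400 to 3953 in P. It was 3363 to 3750 in NP, which overlaps. With file date as a block 3 of the 7 were called, the transporters Abcb1a (-0.73, adjusted p = 0.0354) and Slco1a4 (-0.63, adjusted p = 0.0429) lower in P and the VEGF receptor Kdr higher (0.75, adjusted p = 0.0255). Of all named genes 5.57% were called with the block. Among NP 2, NP 3, P 1 and P 2 alone the same 3 were called, and 6.37% of all named genes. Within P, between P 1 and P 2 and the P 3 and P 4 arrays of a later file date, 42.9% of the 7 were called. Of all named genes 15.6% were. In P 1 and P 2, Kdr (0.83, adjusted p = 0.0138 by limma) and Pdgfrb (0.89, adjusted p = 0.00547) were higher and Slco1a4 (-0.72, adjusted p = 0.014) lower. So Kdr and Slco1a4 also differed among the P rats. The part of the listed genes in the Cd151 values was not tested.

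**Figure D2:**
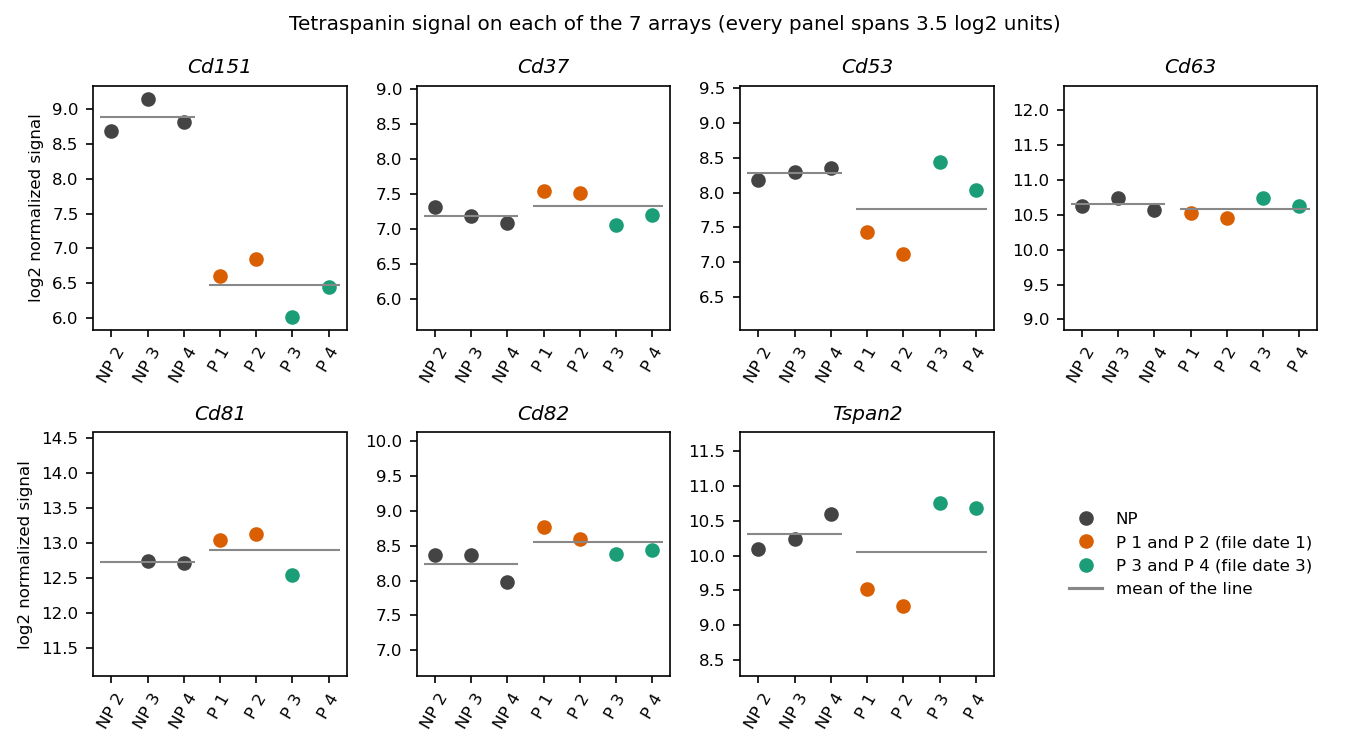
Log2 normalized signal of the 7 tetraspanin genes on each array (dots, coloured by line and, within P, by file date), with line means as grey bars. Every panel spans 3.5 log2 units, so heights can be compared between panels but levels of different probes cannot. Cd151 separates P from NP, while Cd53 and Tspan2 are low in P 1 and P 2.

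Over all 7 arrays the difference in Cd151 did not extend to the 6 other measured tetraspanins at the threshold used, an adjusted p under 0.05 over all 29003 probes. With file date as a block, 2 of the 6 were called lower in P, Cd53 (adjusted p = 0.0203) and Tspan2 (adjusted p = 0.0219). In that fit 5.72% of all probes were called. Without that block, by limma 0 of the 6 were called between P and NP, and 0 of the 6 had an unadjusted p under 0.05, in limma or in a plain test per probe. The background without the block was 0.29% of all probes called, with 0.134% of all probes higher and 0.155% lower in P. The median difference of the 6 was 0.04, beside 0.01 over all probes, and the largest of the 6 was -0.52 for Cd53. The intervals, not the missed threshold, limit what could be present, where a probe has room to fall. All 6 exclude a fall as large as that of Cd151, the lowest bound being -1.11, for Cd53. For Cd37 this was fixed in advance, since its NP mean of 7.19 lies too near the floor, where Cd151 in P averaged 6.48. Cd82 and Cd53, with NP means of 8.24 and 8.28, were also too near that floor for such a fall, so their bounds say little about it. Cd63, Cd81 and Tspan2, with NP means of 10.65, 12.73 and 10.31, had room for it.

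Cd63, the endosomal and exosomal tetraspanin, varied least, with 10.63, 10.75 and 10.58 in NP 2 to NP 4. Its P values were 10.53, 10.45, 10.75 and 10.63 in P 1 to P 4. The lines overlapped and differed by -0.06 ± 0.12 (difference ± SE, adjusted p = 0.853 by limma, 95% interval -0.32 to 0.20).

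Cd81, which is part of the B cell coreceptor and is widely expressed in glia, was flagged as contaminated by the scanner software on NP 2 and P 4, and these spots were left out. It read 12.75 and 12.72 in NP 3 and NP 4. It read 13.04, 13.13 and 12.54 in P 1, P 2 and P 3. The values overlapped and differed by 0.17 ± 0.20 (adjusted p = 0.747 by limma, interval -0.28 to 0.62). With the flagged spots kept, NP 2 read 13.22 and P 4 read 13.04, and the difference was 0.04 ± 0.18 (adjusted p = 0.947).

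Cd82, known as a suppressor of metastasis, was the only one of these 6 whose lines did not overlap. It read 8.37, 8.36 and 7.98 in NP 2 to NP 4. In P 1 to P 4 it read 8.77, 8.60, 8.38 and 8.44, so the lowest P value lay just above the highest NP value. Of all probes with 7 values 13.3% had lines that did not overlap, and 6.91% had all P values above all NP values. The difference was 0.31 ± 0.15, against the direction of Cd151, and was not called (adjusted p = 0.44 by limma, interval -0.01 to 0.64).

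Cd37, a tetraspanin of lymphocytes and other leukocytes, read 7.31, 7.18 and 7.08 in NP 2 to NP 4. Its P values were 7.54, 7.52, 7.06 and 7.20 in P 1 to P 4. The lines overlapped, with a difference of 0.14 ± 0.15 (adjusted p = 0.711 by limma, interval -0.18 to 0.47).

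**Figure D3:**
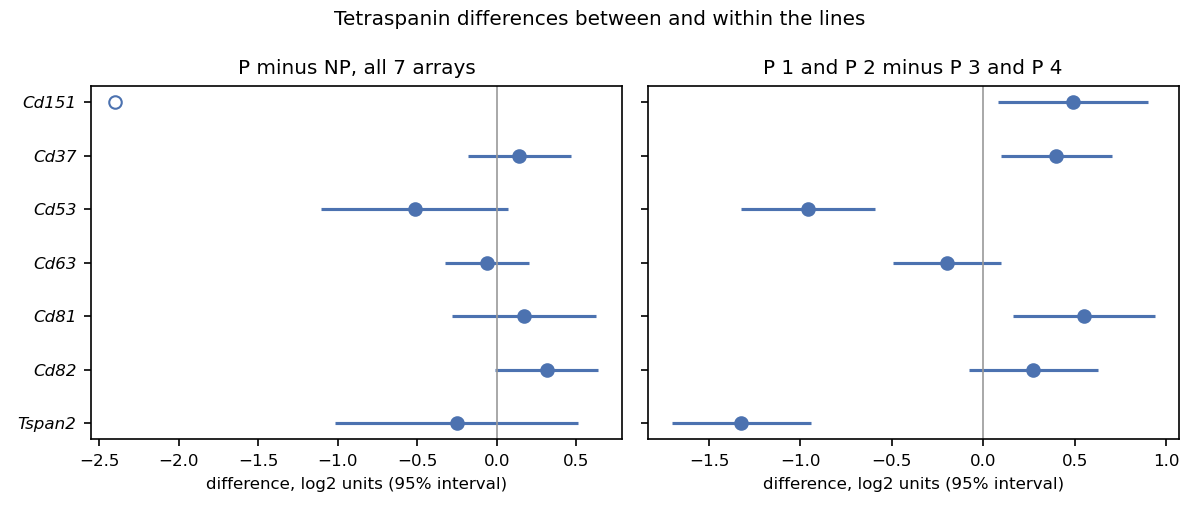
Differences in log2 normalized signal with 95% intervals (lines) for each tetraspanin, between the lines (left) and between the P arrays of the 2 file dates (right). Cd151 is drawn without an interval on the left (open dot), since it was chosen for that difference. On the right Tspan2 (-1.32) and Cd53 (-0.96) lie lowest.

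Cd53 and Tspan2 showed another pattern, a split among the P rats. Cd53, the leukocyte and microglial tetraspanin, read 8.18, 8.30 and 8.35 in NP 2 to NP 4. It read 7.44 and 7.12 in P 1 and P 2, and 8.43 and 8.04 in P 3 and P 4. Tspan2, the oligodendrocyte tetraspanin, read 10.09, 10.24 and 10.60 in NP 2 to NP 4. It read 9.52 and 9.27 in P 1 and P 2, and 10.76 and 10.68 in P 3 and P 4. For both genes P 1 and P 2 lay below all 5 other rats, which was so for 16.3% of all probes with 7 values. The same was seen in the intensities as scanned, where Tspan2 was 620.4 and 394 in P 1 and P 2 and 1038 to 2237.8 in the other 5.

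The file headers carry a date for each array, of which they say no more. Date 1 held NP 2, NP 3, P 1 and P 2, date 2 held NP 4, and date 3 held P 3 and P 4, so the split among the P rats is also a split by date, and rat and date cannot be told apart there. Between the P arrays of the dates, P 1 and P 2 minus P 3 and P 4, Tspan2 differed by -1.32 ± 0.17 (adjusted p = 0.00296 by limma) and Cd53 by -0.96 ± 0.17 (adjusted p = 0.00556). These are 2.50-fold and 1.94-fold lower signals in P 1 and P 2. In this comparison 14% of all probes were called and 7.59% were lower in P 1 and P 2, so the 2 calls among 7 tetraspanins stand on a high background. With the call rule of a plain test per probe, which called 1 of all probes, neither gene passed (adjusted p = 0.0923 for Tspan2 and 0.106 for Cd53). Cd53 also missed the threshold without P 2 (adjusted p = 0.0709) and without P 3 (adjusted p = 0.0507), while Tspan2 was called whichever array was left out (adjusted p up to 0.0477). Leaving out a P array leaves 1 array on its side, which is assumed to vary like the other groups.

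The other 5 genes were not called between the P dates. Cd151 differed by 0.49 ± 0.19 (adjusted p = 0.103), Cd37 by 0.40 ± 0.14 (adjusted p = 0.0777) and Cd81 by 0.55 ± 0.17 (adjusted p = 0.0622). For Cd81 the date 3 side was P 3 alone, since the P 4 spot was left out, and its spread is assumed to be that of the other groups. With the flagged spots kept, Cd81 differed by 0.32 ± 0.20 (adjusted p = 0.314). For Cd151 the call depended on the scaling, with 0.76 (adjusted p = 0.0235) when arrays were centred on their medians and 0.78 (adjusted p = 0.0269) with cyclic loess. Cd81, with P 4 left out, was called with a variance prior that follows intensity (0.55, adjusted p = 0.0217). Cd82 (0.27 ± 0.16) and Cd63 (-0.20 ± 0.14) lay nearest to 0.

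For Cd53 and Tspan2 the difference between the lines changed with the P rats included. Over all 7 arrays Cd53 differed by -0.52 ± 0.27 (adjusted p = 0.467, interval -1.11 to 0.07) and Tspan2 by -0.25 ± 0.35 (adjusted p = 0.784, interval -1.02 to 0.51). Within date 1, with 2 rats of each line, both were called lower in P by limma, Cd53 by -0.96 ± 0.15 (adjusted p = 0.0137) and Tspan2 by -0.77 ± 0.14 (adjusted p = 0.023). There 6.47% of all probes were called, and 4.59% of all probes were lower in P. With the date as a block, where the same 4 arrays carry the line difference, the adjusted p was 0.0203 for Cd53 and 0.0219 for Tspan2, with 5.72% of probes called. Without P 1 and P 2, Cd53 differed by -0.04 (adjusted p = 0.923) and Tspan2 by 0.41 (adjusted p = 0.256), the opposite sign. In the same setting Cd151 kept its fall (-2.64).

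Markers of the cell types known for these 2 genes were read on the same arrays. Of 9 oligodendrocyte genes with a value between the P dates, 1 was called lower in P 1 and P 2, Ermn (-0.49 ± 0.14, adjusted p = 0.0404), and none was called higher. Their summed signal was 23470 to 23940 in P 1 and P 2, 26410 to 28900 in P 3 and P 4, and 23810 to 28480 in NP. Of 9 microglial genes 1 was called lower, Aif1 (-0.75 ± 0.19, adjusted p = 0.0248), and none higher. The summed signals of the 9 were 6583 to 6676 in P 1 and P 2. They were 6740 to 6783 in P 3 and P 4, and 6275 to 7224 in NP. Each count is 11.1% of its list, below the 15.6% of all named genes called in that comparison. Of the tested genes 9 of 10 oligodendrocyte and 9 of 9 microglial genes lay above background on all arrays by the scanner software. That rule also passed Cd151 on 3 of 4 P arrays. The microglial marker Cx3cr1 read only 6.70 to 6.84, near the level of Cd151 in P, so its flat values say little. Within date 1 the same 2 markers were called lower in P than in NP, Ermn by -0.72 (adjusted p = 0.0227) and Aif1 by -1.23 (adjusted p = 0.0138). There 6.37% of all named genes were called. Over all 7 arrays neither list had a gene called between the lines by limma. Unadjusted p under 0.05 was met by 3 of 9 microglial (5 in the plain test) and 3 of 10 oligodendrocyte genes (0 in the plain test). Over all 29003 probes it was met by 3348 in limma. For both Aif1 (-0.81, adjusted p = 0.302) and Ermn (-0.42, adjusted p = 0.384) every P value lay below every NP value. Lines did not overlap for 13.3% of all probes with 7 values. The part of these cell types in the Tspan2 and Cd53 values was not tested. Over the 7 lists of cell type markers, 40 of 44 tested genes lay above background on all arrays by the same rule.

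Other members of the tetraspanin family were taken from a list of 23 genes, of which 9 had a named probe. None of the 9 was called between the lines by limma, where 1 had an unadjusted p under 0.05 and 0 did so in the plain test, and the median difference was -0.10. For Upk1b, Tspan1, Tspan31, Tspan8, Prph2 and Rom1 the NP means were 6.78 to 8.05. These lie too near the level of Cd151 in P (6.48) to show a fall as large as that of Cd151. The smallest p was that of Prph2, a tetraspanin of photoreceptor discs, at -0.70 ± 0.28 (adjusted p = 0.40), followed by its photoreceptor partner Rom1 at -0.26 ± 0.19 (adjusted p = 0.593). Prph2 differed by -1.10 without NP 2, -0.36 without NP 4 and -0.23 with file date as a block. Rom1 ranged from -0.53 (without NP 2) to -0.09 (without NP 4) with single arrays left out, and was -0.03 with the block. Between the P dates none of the 9 was called either, against 15.6% of all named genes.

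Proteins that act with tetraspanins were taken from a list of 29 genes, and 15 were tested, among them the integrin chains Itga7, Itgb1, Itgb3 and Itgb4. None was called between the lines by limma, 1 had an unadjusted p under 0.05 and 0 did so in the plain test, with a median difference of 0.05. For Itgb3, Cd44, Epcam, Pi4k2a, Cdh1, Adam17, Mmp14, Met and Itgb4 the NP means were 6.59 to 7.67. These too lie too near the level of Cd151 in P to show a fall as large as that of Cd151. The smallest p were those of Pi4k2a, a lipid kinase that binds Cd151 and other tetraspanins (0.47 ± 0.18, adjusted p = 0.393), and the adhesion protein Cdh1 (0.28 ± 0.14, adjusted p = 0.455). Itgb1, the beta chain of several laminin-binding integrins, differed by -0.19 ± 0.15 (adjusted p = 0.63). A second, dimmer probe of Itgb1 had the opposite sign, 0.17 ± 0.20 (adjusted p = 0.747 by limma).

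**Figure D4:**
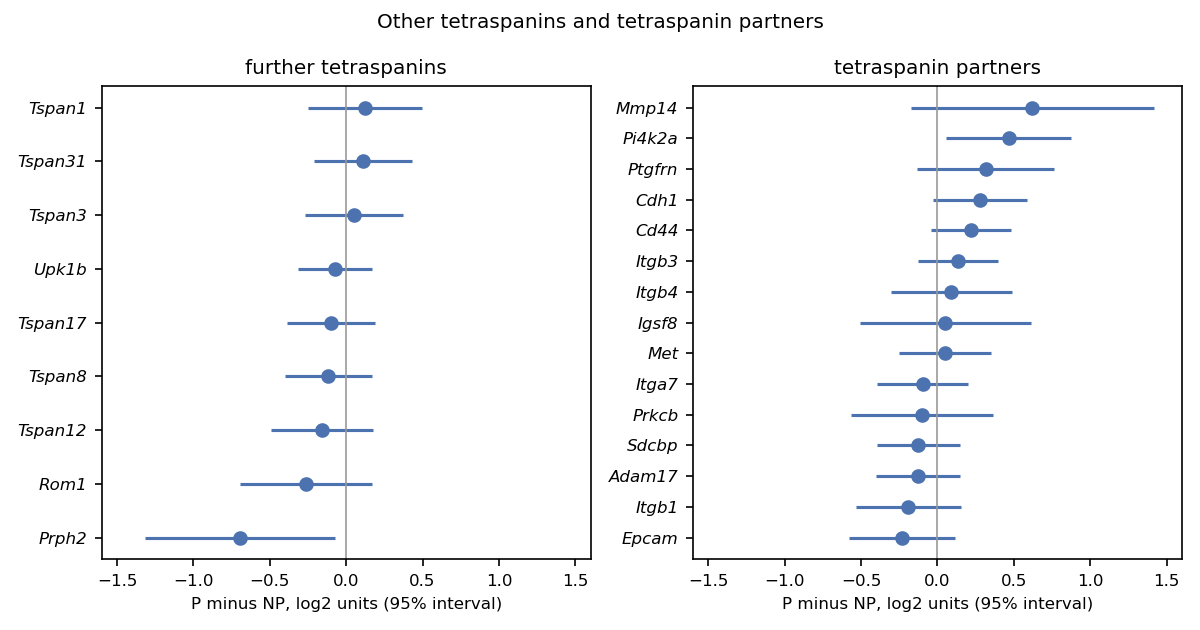
P minus NP difference in log2 normalized signal with its 95% interval for the 9 further tetraspanins (left) and the 15 tetraspanin partners (right), ordered by size. All but Prph2 and Pi4k2a have intervals that include 0, and none was called.

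Between the P dates 4 of the 15 partners were called, all higher in P 1 and P 2, which is 26.7% against 15.6% of all named genes. Over all probes 6.4% were called in that direction. They were the membrane protease Mmp14 (1.16 ± 0.14, adjusted p = 0.00249), Igsf8 (0.88 ± 0.17, adjusted p = 0.00761) and Ptgfrn (0.61 ± 0.17, adjusted p = 0.0364), which are direct tetraspanin partners of the immunoglobulin superfamily, and Itgb4 (0.56 ± 0.15, adjusted p = 0.0269). Mmp14 read 8.55 and 8.62 in P 1 and P 2, 7.35 and 7.50 in P 3 and P 4, and 7.38 in both NP 3 and NP 4, with its NP 2 spot left out. It was the only partner called between the lines within date 1 (1.20, adjusted p = 0.0122), where its NP side was NP 3 alone, with a spread assumed to be that of the P pair, and where 1.88% of all probes were called higher in P. Second probes were not called: that of Igsf8 differed by 0.63 ± 0.20 (adjusted p = 0.0612), that of Itgb4 by 0.39 ± 0.17, and those of Ptgfrn by 0.31 ± 0.16 and -0.09 ± 0.17.

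The genes most like Cd151 were ranked by Pearson's r over the 7 arrays, among 5295 named genes with 7 values, as a description. The 5 highest were RGD1359108 (r = 0.987), Wdsub1 (0.971), Tmem254 (0.966), Ppat (0.966) and Serpina11 (0.962), all lower in P on average. Of these, Ppat, which catalyses the first committed step of purine synthesis, came nearest in size at -1.46 ± 0.11, and the others differed by -0.27 to -0.58. The size for Ppat, whose P mean of 6.38 lies near the floor, was -2.43 with plain background subtraction and -2.42 in the authors' deposited table, and it could not be fitted among probes above background on all 7 arrays. Such an r mostly reflects the line means. Over deviations from the line means it was 0.977 for Wdsub1 and -0.55 for Ppat. The tetraspanins ranked between 1066 (Cd53, r = 0.392) and 4551 (Cd82, r = -0.587) of the 5295, with Cd81 not ranked for its missing spots.

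Neighbours of Cd151 on rat chromosome 1 were read in the gene order of GRCr8. The nearest genes on either side, Cracr2b and Polr2l, and the tetraspanin Tspan4 beyond Polr2l, were not among the named genes tested. Of the 5 tested genes on each side, from Drd4 to Igf2, none of the 10 was called by limma, 2 had an unadjusted p under 0.05, and the median difference was 0.12. The smallest p was that of Tnni2, a troponin of fast muscle, at -0.74 ± 0.27 (adjusted p = 0.376), which was -0.32 without NP 3. The closest tested genes were Cend1, with 5 genes between it and Cd151 (0.32 ± 0.16), and Ap2a2, with 4 between (0.16 ± 0.20). Cd81 lies further along the same chromosome.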

How the data were processed

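Per the labels, each rat's biotin-labelled RNA went to its own 1-colour array. Per the file headers, the deposited tables give the spot intensity, local background intensity, their difference and a scaled intensity. The authors also deposited log2 values. Their method, the scanner software and the genome build were not given in the sources used here. They followed log2 of the scaled intensity (r of 0.9985 or higher), with medians from -0.07 to 0.05. Any further adjustment between arrays is unknown.

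In limma 3.58.1 (R 4.3.3), intensities were corrected by normexp (offset 50), control spots and flagged outlier spots (masked, irregular, contaminated) left out, and 33849 transcript probes quantile-normalized. Probes above background on at least 3 of 7 arrays were kept (29008, of which 29003 could be fitted). P and NP were compared with lmFit and eBayes without a block, and the P arrays by file date in a fit of 3 groups. P-values were adjusted by Benjamini-Hochberg over all probes, with calls under 0.05. Accessions were matched to RefSeq (GRCr8), naming 7207 probes. The brightest probe stood for a gene in list counts. Summed signals are sums of linear normalized values. The number of arrays limits the precision.

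Members and lists were chosen with earlier results of these data known. Named were all members, called list genes or the 2 with the smallest p, the 5 genes most like Cd151, and 5 tested neighbours per side. The marker, date and second-probe values of list genes outside this rule were named after being seen. Alternatives covered background, scaling, filters, flagged spots, variance models, weights, the authors' values, blocks and arrays left out. The fit was tested on simulated data. Figures were drawn with matplotlib 3.10.9.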

Additional observations from a re-analysis of the deposited data

How the results depend on the processing

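Of the 6 tetraspanins besides Cd151, 0 were called between the lines under 22 of 25 alternatives, with Cd81 fitted in 23 of the 25. The count was 2 (Cd53 and Tspan2) with file date as a block, 2 on date 1 alone and 2 without P 3 and P 4, where Cd53 differed by -0.996 (adjusted p = 0.00412) and Tspan2 by -0.92 (adjusted p = 0.0111). Among the partners the count was 1, 1 and 2 in the same settings, and 0 otherwise, where the 1 is Mmp14 with NP 3 alone on its NP side, and among the further tetraspanins it was 0 in all 25. The count of 2 between the P dates fell to 0 in the plain test per probe, rose to 3 with median scaling and cyclic loess (Cd151 added) and with the variance prior that follows intensity (Cd81 added), and lay between 1 and 2 when single arrays were left out. Without P 1 and P 2 the line difference changed sign for Cd37 (-0.058), Cd63 (0.040), Cd81 (-0.20) and Tspan2 (0.41). With single arrays left out Tspan2 ranged from -0.49 to 0.0092, the last without P 2. Cd151 ranged from -3.67 to -2.15 over 24 alternatives, and it could not be fitted among probes above background on all arrays. The cause of these changes was not tested, beyond the arrays that each setting leaves out.

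Over all probes the number of line calls was 84, and 35 in the plain test, 154 with array weights, 1654 with the date block, 1867 on date 1 alone, 189 without P 1 and P 2, and 3317 without P 3 and P 4. It was 49 among probes above background on all arrays, 51 in the authors' deposited values, and 51 without NP 4 to 121 without P 3. The 4046 calls between the P dates ranged from 1 (plain test) to 5785 (median scaling). No scaling moved the median of all probes by over 0.1, which says little, since each scaling brings the arrays to a common level. Whether the replicate numbers pair the rats is not said by the labels. Same-numbered P and NP arrays had correlations of deviations of 0.0207 to 0.097, and 2 of 6 arrays correlated best with their own number. This cannot settle the question, since P 3 and NP 3, and P 4 and NP 4, also differ in file date. With replicate number as a block, 102 probes, 0 further tetraspanins and 0 partners were called. So were 0 of the 5 tetraspanins besides Cd151 that could be fitted there, all but Cd81. None of 16 sets of P values had a lone distant rat, where 0.8 would be met by chance. Cd151 in P lay near the negative controls, which limits the precision of its size.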
